A study of Mus musculus with 302 samples.

Results

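Paip1 low-state livers were 70 of the 302 livers of an F2 mouse cross in which 1 of the 2 array probes for Paip1 (NCBI gene 218693, chromosome 13) stood far below its values in the other 232, the high-state livers. The members were chosen by their values: the Paip1 probe with the larger spread was split by 2-means started at its lowest and its highest value. Its values are therefore given as a description, without a test, and every test below is on other probes. Each liver was that of a single F2 animal, female or male, descended from C57BL/6J and C3H/HeJ parents crossed both ways. A chow holding 4% fat was fed up to week 8, and 12 weeks of a Western diet holding 42% fat and 0.15% cholesterol followed. Animals aged 20 weeks were killed after fasting for 12 h. Low-state and high-state livers share this history, and the labels give no genotype, sex or direction of cross for a mouse. Each array set the RNA of 1 liver against a common pool of equal portions of all of them, so a value is a log10 ratio of liver to pool. Base and direction are not stated in the sources used here and are read as the likely ones. Folds rest on that base, and in the opposite direction every sign below, every higher and lower, and which state is the low one would turn.

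Paip1 encodes a partner of the poly(A)-binding protein. It links the tail of an mRNA to the initiation factors that work at its cap, stimulates translation, and takes part in the turnover of some mRNAs. In an F2 animal long stretches of each parental chromosome are inherited whole, so that genes lying close together mostly come from the same grandparent. Directly beside Paip1, with 0 annotated genes between them in the gene order of the assembly GRCm38.p6, lies Nnt, the transhydrogenase of the inner mitochondrial membrane that uses the proton gradient to make NADPH. Nnt is known for a deletion of several exons carried by C57BL/6J. On the other side Tmem267, a membrane protein gene, is the nearest measured gene, with 2 annotated genes between, 4833420G17Rik and the lncRNA gene 3110070M22Rik, whose place overlaps the start of Tmem267.

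The promoters of Paip1 and Tmem267 are shown because Tmem267 is the nearest measured gene on that side and differed most among the called genes. They come from the RefSeq table of GRCm38.p6, whose reference is C57BL/6J, 1 of the parents. Each holds 250 bases before and 50 after the first of 2 listed starts, and capitals mark the GC box letters GGGCGG on either strand. The Paip1 stretch is chr13:119428350-119428649 and the Tmem267 stretch is chr13:119487836-119488135, both on the plus strand.
Paip1: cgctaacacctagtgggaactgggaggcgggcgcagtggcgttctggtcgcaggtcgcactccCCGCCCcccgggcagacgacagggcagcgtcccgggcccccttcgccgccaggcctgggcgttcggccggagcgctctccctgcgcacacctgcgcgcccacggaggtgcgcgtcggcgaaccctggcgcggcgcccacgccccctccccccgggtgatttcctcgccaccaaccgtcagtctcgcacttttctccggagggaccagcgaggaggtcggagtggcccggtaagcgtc
Tmem267: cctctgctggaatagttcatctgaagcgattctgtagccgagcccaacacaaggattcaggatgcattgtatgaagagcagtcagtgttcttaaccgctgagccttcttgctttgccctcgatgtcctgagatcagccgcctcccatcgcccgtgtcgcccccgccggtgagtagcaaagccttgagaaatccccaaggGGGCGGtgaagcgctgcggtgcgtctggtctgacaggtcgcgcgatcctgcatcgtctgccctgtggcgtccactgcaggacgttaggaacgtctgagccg
Each of these holds 1 GC box, the stretch at the second listed start of either gene holds 4 (overlaps counted), and none of the 4 stretches holds CCAAT or TATAAA on either strand. GGGCGG occurs in 35.7% of the 32851 promoters of that table, CCAAT in 37.4% and TATAAA in 13.6%. These matches are a description of letters only.

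Paip1 itself was at -0.987, -0.804 and -0.450 (lowest, median and highest) in the 70 low-state livers, against -0.292, 0.0660 and 0.469 in the 232 high-state livers. The states did not overlap, which the rule itself brings about. Their means were -0.776 ± 0.115 and 0.0964 ± 0.137 (SD), a ratio of 7.46. The low-state livers nearest to the division had -0.450 and -0.536 and the high-state livers nearest to it -0.292 and -0.207, which leaves a gap of 0.158 around the midpoint of -0.340. The other Paip1 probe showed no such split: it was at -0.250, -0.0259 and 0.354 in low-state livers and at -0.155, -0.00131 and 0.300 in high-state livers, and the groups overlapped over most of their range. The difference of its means, low minus high, was -0.0237. The part of the mRNA that each probe reads is not given in the sources used here.

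High-state livers were not uniform in Paip1. In mice with title numbers up to 212 there were 87 high-state livers below 0.1, only 2 between 0.1 and 0.15, and 37 above. Above number 212 there were 76 below 0.15, 6 between 0.15 and 0.25, and 24 above. These limits were set after the values were seen. Low-state livers lay lower in the higher range of title numbers, with a median of -0.845 there and -0.679 in the lower range.

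**Figure D1:**
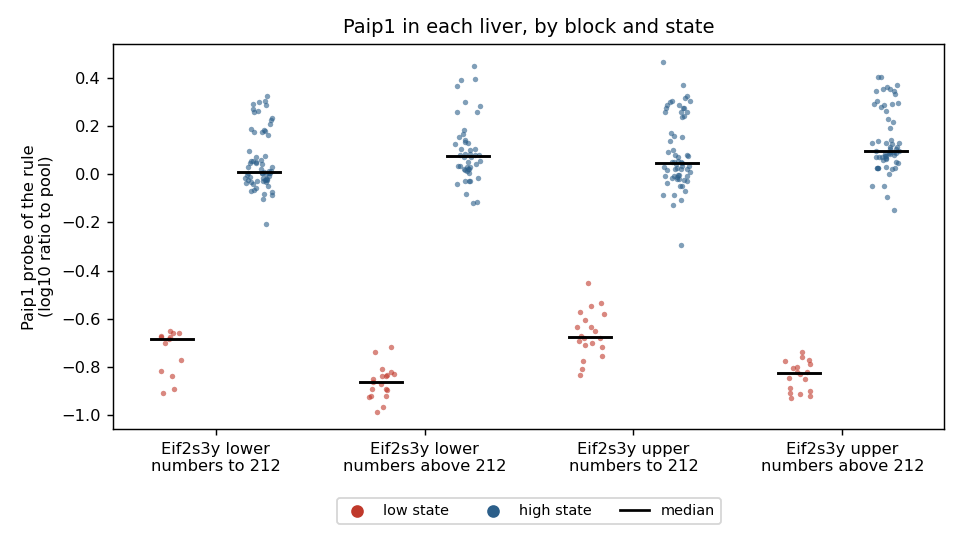
Log10 ratio to the pool of the Paip1 probe that defined the states, 1 point per liver, with low-state livers to the left of high-state livers in each of the 4 blocks and black lines at the medians. In every block all low-state livers lie at -0.450 or below and all high-state livers at -0.292 or above, where high-state points fall into a larger lower and a smaller upper heap.

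Both states occurred in every block. A value of the Y-linked gene Eif2s3y below or above -0.8 parted the mice into a lower and an upper block, and title numbers up to 212 and above it into a lower and a higher range. Low-state livers made up 22.5% of the lower Eif2s3y block (32 livers) and 23.8% of the upper one (38 livers; Fisher's exact test, p = 0.891, two-sided). They made up 25.9% of the higher number range (37 livers) and 20.8% of the lower range (33 livers; Fisher's exact test, p = 0.339). The spread over an array's probes had a median SD of 0.0974 in low-state and 0.0975 in high-state livers, and 0 of 70 and 3 of 232 arrays had more than 2 times the median SD. The number of arrays limits the precision. Low-state livers were compared with high-state livers over the other 23510 probes with limma, with Eif2s3y block and number range as covariates, and probes with an adjusted p under 0.05 (Benjamini-Hochberg, two-sided) were called.

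Few genes differed, and the largest called differences were those of the nearest measured genes on either side of Paip1, Nnt (lower in low-state livers) and Tmem267 (higher). Of 23510 probes 45 were called (0.191%), 28 higher in low-state livers (0.119%) and 17 lower (0.0723%). With quantile normalization the split was 26 higher and 8 lower, and with arrays scaled to equal spread 24 and 8. The called probes comprised 12 of the 480 with a named gene on chromosome 13 (2.5%), 10 of the 12135 named on other chromosomes (0.0824%), and 23 of the 10895 without a named and placed gene (0.211%). At an unadjusted p under 0.05 there were 2586 probes (11%).

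Nnt fell in low-state livers by 0.201 ± 0.0142 on the log10 scale (SE, 1.59-fold, adjusted p = 4.37e-31 by limma), the smallest p of all probes. It was at -0.413, -0.197 and 0.235 (lowest, median, highest) in low-state livers, against -0.226, 0.0691 and 0.318 in high-state livers. The groups overlapped, with 26 of 70 low-state livers below every high-state liver and 56 of 70 below the high-state median. Within the high state Nnt was higher where Paip1 was higher (Pearson r = 0.468, 232 livers). A 2-means split of Nnt put 46 low-state livers and 44 high-state livers in its lower cluster, and 24 low-state and 188 high-state livers in its upper cluster. In bulk liver RNA, fewer cells of a type and less RNA per cell cannot be told apart.

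The fall of Nnt differed between the ranges of title numbers. Up to number 212 all 33 low-state livers lay between -0.343 and -0.139, against -0.226, 0.0422 and 0.318 (lowest, median, highest) in 126 high-state livers. Above number 212 the 37 low-state livers fell apart into 13 at -0.161 or below and 24 at 0.0153 or above, with no liver in between, a gap of 0.176 that was found after the values were seen. The 106 high-state livers of that range lay at -0.112, 0.115 and 0.304, so the 24 low-state livers lay within their range and the 13 below it. The same parting of low-state livers was present in both Eif2s3y blocks above number 212, as 7 and 12 livers in the lower block and 6 and 12 in the upper one. It was not spread evenly over the range. All 13 livers with low Nnt had title numbers of 276 or above, where low-state livers with high Nnt also occurred. Every low-state liver numbered 214 to 271 lay at 0.0402 or above. These limits were found after the values were seen. Within the lower number range the difference was -0.271 (adjusted p = 9.13e-37) and within the higher range -0.132 (adjusted p = 0.000290). The test of the difference between the ranges gave 0.140 ± 0.0273 (SE, limma interaction term, adjusted p = 0.0125), the only probe of 23510 called in that test (0.00425%). Against the Eif2s3y block the interaction of Nnt was 0.0466 ± 0.0284 (adjusted p = 0.788). High-state livers below the middle of that gap numbered 15 of 126 up to number 212 and 2 of 106 above it, all of them in the upper Eif2s3y block. The labels do not say what sets the number ranges apart.

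Tmem267 had the largest difference of all called probes, and it ran the other way. It rose in low-state livers by 0.248 ± 0.0313 (SE, 1.77-fold, adjusted p = 1.86e-10 by limma). Low-state livers were at -0.337, 0.0486 and 0.559 (lowest, median, highest), and high-state livers at -0.724, -0.131 and 0.385. In 63 of 70 low-state livers the value lay above the high-state median and in 6 above every high-state liver. High-state livers were not uniform in Tmem267 either. Within the high state Tmem267 was lower where Paip1 was higher (Pearson r = -0.559, 232 livers). This r was -0.673 in the lower number range (126 livers) and -0.395 in the higher one (106 livers). How far the rise rests on high-state livers with high Paip1 was not tested. The rise was 0.316 in the lower number range (adjusted p = 6.26e-06) and 0.177 in the higher one (adjusted p = 0.0166), and their difference was not called (interaction -0.140 ± 0.0624, adjusted p = 1, unadjusted p = 0.0257).

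**Figure D2:**
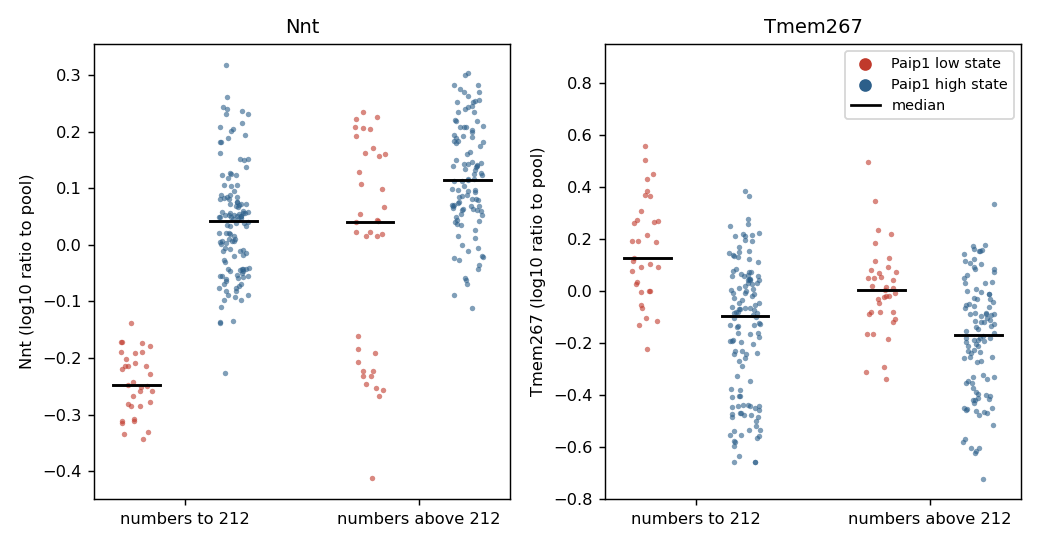
Log10 ratio to the pool of Nnt (left) and Tmem267 (right), 1 point per liver, Paip1 low-state livers to the left of high-state livers within each range of title numbers, black lines at the medians. Nnt of low-state livers forms 1 heap at -0.139 or below up to number 212 and a pair of heaps parted by 0.176 above it, while Tmem267 is higher in low-state livers in both ranges.

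The other close neighbours showed no such difference. Of the 20 measured genes nearest to Paip1, 15 before and 5 after it on the chromosome, only Nnt and Tmem267 were called. The other 18 lay between -0.0215 and 0.0210, with a smallest adjusted p of 0.185, and 1 of them had an unadjusted p under 0.05 (Tcstv3, 5 genes after Paip1, named after its values were seen). Those 18 include Ndufs4, a subunit of respiratory complex I (0.0136 ± 0.00777, SE, adjusted p = 0.528), the follistatin gene Fst (0.0101 ± 0.0149, adjusted p = 0.866) and the chemokine gene Ccl28 (0.00764 ± 0.00616, adjusted p = 0.698), also named after their values were seen.

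Farther along chromosome 13, on the only side with many genes, another 10 genes were called, all between 24 and 93 measured genes before Paip1. In the window of 16 to 50 genes before it 5 of 35 genes were called (14.3%), from 51 to 100 genes 5 of 50 (10%), and beyond that 0 of 305. At an unadjusted p under 0.05 there were 9 of the 35 (25.7%), 12 of the 50 (24%), 15 of the next 100 (15%) and 14 of the farthest 205 (6.83%). On other chromosomes 8 of 10402 genes were called (0.0769%) and 1036 had an unadjusted p under 0.05 (9.96%).

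**Figure D3:**
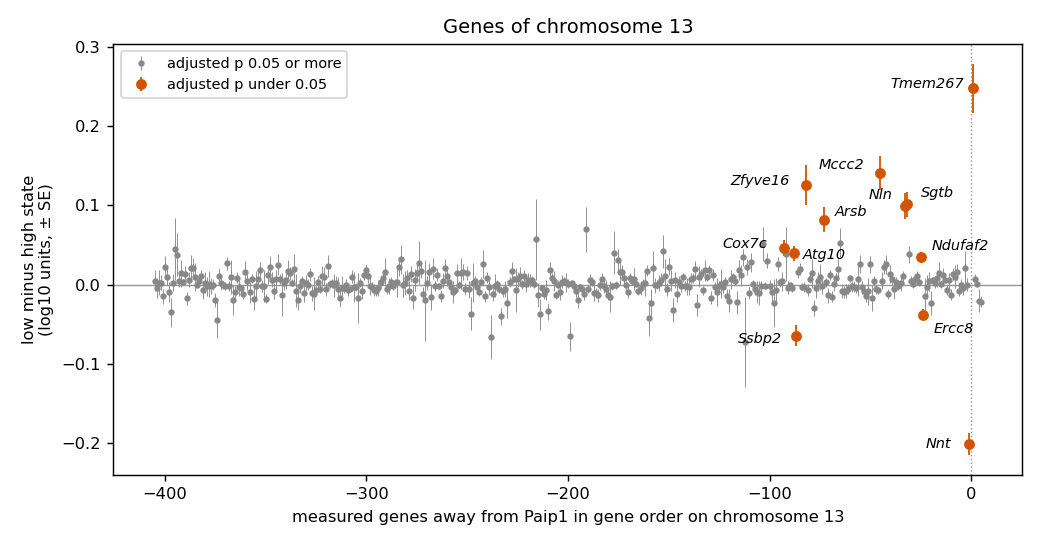
Difference of low-state minus high-state livers in log10 units with its SE for each of 410 measured genes of chromosome 13. Genes are placed by their steps from Paip1 (0, dotted line) in the order of measured genes. The next gene stands at 1, and negative numbers are before Paip1. The 12 orange genes passed an adjusted p of 0.05, and all stand within 93 genes of Paip1, Nnt lowest and Tmem267 highest.

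Of these 10 genes 8 rose and 2 fell. Mccc2, a subunit of the mitochondrial carboxylase that breaks down leucine, rose by 0.141 ± 0.0217 (SE, 1.38-fold, adjusted p = 9.07e-07 by limma). It was at -0.337, 0.120 and 0.273 (lowest, median, highest) in low-state livers and at -0.452, -0.0139 and 0.303 in high-state livers, and 58 of 70 low-state livers lay above the high-state median. The groups overlapped over nearly all of their range.

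Next to each other in gene order, 32 and 33 genes before Paip1, stand Sgtb, a co-chaperone, and Nln, the oligopeptidase neurolysin, and both rose. Sgtb was at -0.189, 0.0532 and 0.376 in low-state livers, against -0.309, -0.0353 and 0.472 in high-state livers, a rise of 0.102 ± 0.0159 (SE, adjusted p = 1.57e-06). Nln was at -0.223, 0.0828 and 0.287 in low-state livers, against -0.489, -0.0187 and 0.240 in high-state livers, a rise of 0.0994 ± 0.0165 (adjusted p = 1.14e-05). Of the low-state livers 59 (Sgtb) and 53 (Nln) of 70 lay above the high-state median.

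Another adjacent pair differed in opposite directions. Ercc8, which acts in the repair of transcribed DNA, fell by 0.0379 ± 0.00737 (SE, adjusted p = 0.000820), and its neighbour Ndufaf2, an assembly factor of respiratory complex I, rose by 0.0342 ± 0.00675 (adjusted p = 0.00104). Ercc8 medians were -0.0107 in low-state and 0.0259 in high-state livers, and those of Ndufaf2 were 0.0309 in low-state and 0.00400 in high-state livers. In 54 of 70 low-state livers Ercc8 lay below, and in 56 of 70 Ndufaf2 above, the high-state median.

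The 5 remaining called genes of the chromosome lie 73 to 93 genes before Paip1, apart from the fall of Ssbp2 all higher in low-state livers. Zfyve16, which encodes an endosomal protein, had medians of 0.129 in low-state and -0.00126 in high-state livers and rose by 0.126 ± 0.0254 (SE, adjusted p = 0.00149). The lysosomal sulfatase Arsb rose by 0.0822 ± 0.0158 (adjusted p = 0.000647). Cox7c, a subunit of cytochrome c oxidase, rose by 0.0464 ± 0.0103 (adjusted p = 0.00866), and the autophagy enzyme Atg10 by 0.0396 ± 0.00945 (adjusted p = 0.0242, but 0.0661 without the block). Ssbp2, a protein that binds single-stranded DNA, fell by 0.0648 ± 0.0133 (adjusted p = 0.00186). All 12 called genes of chromosome 13 kept their direction in each of the 4 blocks, and so did the 8 of other chromosomes, although fits within a range or block of mice called fewer of them. The genes were chosen by the fit over these same blocks, which favours such agreement, so it is a description only.

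Differences outside chromosome 13 were small, at most 1.13-fold, in 8 called genes. Zfp1, a zinc finger gene of chromosome 8, rose by 0.0337 ± 0.00626 (SE, adjusted p = 0.000301 by limma), with medians of 0.0577 in low-state and 0.0135 in high-state livers. Zdhhc22, of a family of palmitoyltransferases, rose by 0.0427 ± 0.00846 (adjusted p = 0.00106), and its means were 0.0448 ± 0.0693 in low-state and 0.000636 ± 0.0609 in high-state livers (SD). Impg2, a matrix proteoglycan gene of the retina, rose by 0.0278 ± 0.00681 (adjusted p = 0.0367). The zinc finger gene Zfp574 fell by 0.0536 ± 0.0127 (adjusted p = 0.0226), and the clock repressor Cry1 by 0.0513 ± 0.0127 (adjusted p = 0.0400). Nsg1, an endosomal protein gene of neurons, fell by 0.0319 ± 0.00679 (adjusted p = 0.00399). Both Trim28, a co-repressor of zinc finger proteins (-0.0215 ± 0.00536, adjusted p = 0.0415), and Fzr1, an activator of the ubiquitin ligase that ends mitosis (-0.0210 ± 0.00493, adjusted p = 0.0199), were lower. Low-state and high-state livers overlapped in all 8 genes.

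Zfp1 and Zdhhc22 were the only genes outside chromosome 13 called in all 10 other fits over both states and all blocks, whereas 11 of the 12 on chromosome 13 were. Under quantile normalization the adjusted p of Cry1 was 0.0581, of Impg2 0.131, of Trim28 0.202 and of Fzr1 0.0721. With arrays scaled to equal spread that of Zfp574 was 0.0518, and without the block that of Nsg1 was 0.0556. The gene Mlf2 has 4 probes, of which 2 were called (-0.0337 and -0.0341). The probe with the largest spread, which stood for the gene, was not called (-0.0152, adjusted p = 0.687).

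**Figure D4:**
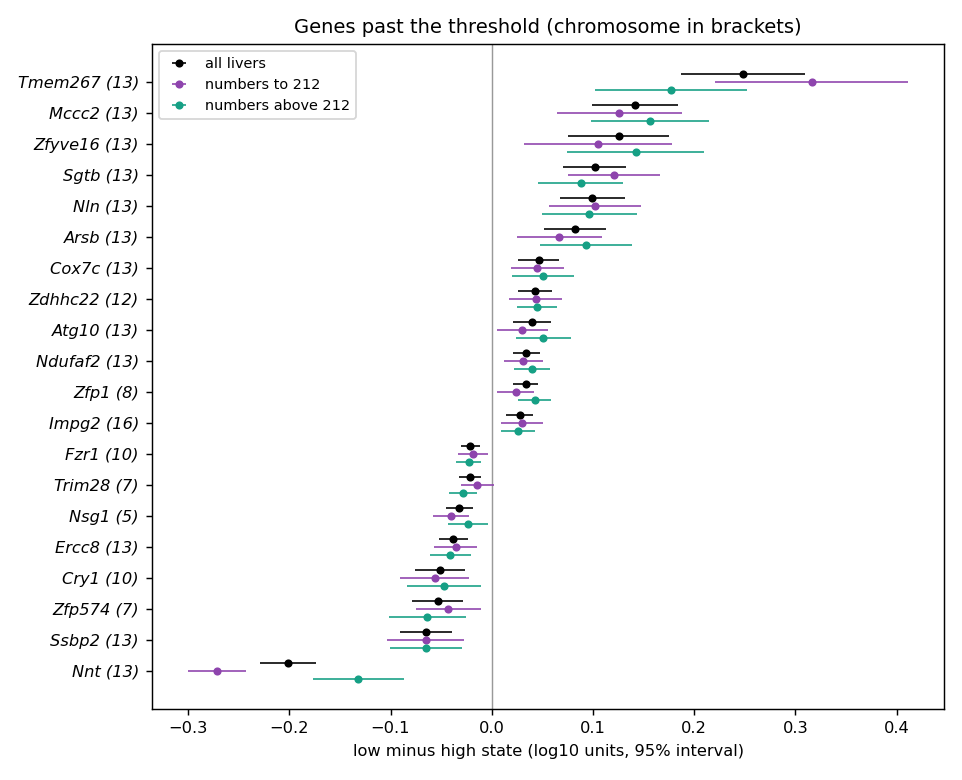
Difference of low-state minus high-state livers in log10 units with 95% intervals for the 20 called genes, in all livers and within each range of title numbers, with the chromosome in brackets. The direction is the same in both ranges for each gene, which choosing the genes by the fit over all livers favours. Nnt is the gene whose intervals in the ranges do not meet.

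Some of the clearest differences came from probes without a mouse gene name. Of the 23 such probes called, 16 were higher and 7 lower in low-state livers, by 0.0164 to 0.189. Probe 10024403640 rose by 0.140 ± 0.0104 (SE, adjusted p = 1.03e-28 by limma), the next smallest p after Nnt. It was at -0.0265, 0.0993 and 0.254 (lowest, median, highest) in low-state livers, against -0.242, -0.0226 and 0.154 in high-state livers, and 69 of 70 low-state livers lay above the high-state median. The largest fall among them was that of probe 10024409065, by 0.124 ± 0.0142 (adjusted p = 1.02e-12), with medians of -0.116 in low-state and 0.0266 in high-state livers. Both were singled out after their values were seen, and their place in the genome is not known here.

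The partners of Paip1 in translation were not called in either direction. Of all named genes 0.185% were called, so lists of this size would hold few or no calls. Their absence therefore says little about these partners. Among 11 measured genes of the poly(A)-binding protein and its partners, 22 cap-dependent initiation factors, 8 eIF3 subunits and 7 genes of elongation and release, limma called 0, and at an unadjusted p under 0.05 there were 1, 1, 1 and 3. Pabpc1, the main cytoplasmic poly(A)-binding protein, averaged 0.0181 ± 0.0613 in low-state and 0.0150 ± 0.0609 in high-state livers (SD). The difference was -0.000848 with a 95% interval of -0.0153 to 0.0136 (adjusted p = 0.985). Among the initiation factors Eif4ebp2, a repressor of the cap-binding factor, had the smallest p (-0.0554 ± 0.0168, SE, adjusted p = 0.147). It and the genes given below without a call were named after their values were seen. Of 22 genes of mRNA deadenylation and decay 0 were called, 4 had an unadjusted p under 0.05, and the exosome subunit Exosc7 had the smallest p (0.0223 ± 0.00659, adjusted p = 0.134). Of 39 cytosolic ribosomal protein genes 0 were called, and 9 were higher and 2 lower at an unadjusted p under 0.05, a share of 28.2% against 10.1% of all 10814 named genes. The median difference of that list was 0.00688 and that of all genes -0.000456.

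In the 3 lists for oxidative phosphorylation, the mitochondrial ribosome and the handling of NADPH, glutathione and peroxide, Cox7c was the only call. These lists do not hold Nnt, Mccc2 or Ndufaf2, whose calls are given above. Cox7c was 1 of 25 measured genes of oxidative phosphorylation (4%, median difference 0.00828), of which 5 were higher and 1 lower at an unadjusted p under 0.05, and it lies on chromosome 13. Of 28 mitochondrial ribosomal protein genes 0 were called and 5 had an unadjusted p under 0.05. In the 27 genes of NADPH, glutathione and peroxide handling limma called 0, and 4 had an unadjusted p under 0.05. They ran from Cat, the catalase gene, at -0.0483 to Hmox1, the haem oxygenase, at 0.0296, with a median of -0.00172. In the order given, the shares of the 3 lists at an unadjusted p under 0.05 were 24%, 17.9% and 14.8%. Of all named genes 10.1% had such a p and 0.185% were called.

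Liver metabolism and stress lists held 1 further call, that of Cry1 among 14 clock genes. No gene was called by limma among sterol synthesis and uptake (16 measured, 1 with an unadjusted p under 0.05), fatty acid synthesis (16, 2), fatty acid oxidation (21, 1), fat storage (9, 1), glucose metabolism (12, 0), bile acids (13, 3) or drug metabolism (18, 1). Nor was any among the unfolded protein response (15, 1), heat shock (10, 4), cell division (17, 1), acute phase (14, 1), interferon response (17, 0), MHC class II (6, 0) or immediate early genes (13, 1). Baat, which conjugates bile acids, had 0.0300 ± 0.00889 (adjusted p = 0.134) and Cyp8b1, the sterol 12-hydroxylase, -0.0566 ± 0.0198 (adjusted p = 0.219). Over all 34 lists 2 of 494 measured genes were called, against 0.185% of all named genes. At an unadjusted p under 0.05 there were 67 of the 494 (13.6%), against 10.1% of all named genes. List medians ran from -0.0332 (heat shock) to 0.0183 (bile duct markers).

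Markers of the liver's cell types were not called either. Of 12 hepatocyte markers 0 were called and 0 had an unadjusted p under 0.05, with a median difference of -0.00318. Of 88 markers in 9 lists for other cell types 0 were called, 8 were higher and 2 lower at an unadjusted p under 0.05 (4 of these 10 among 10 neutrophil markers), and the list medians lay between -0.0256 (red cells) and 0.0183 (bile duct). Over all named genes 0.185% were called and 10.1% had an unadjusted p under 0.05. At that share lists of this size would hold few or no calls, so their absence says little about cell types. A ratio to a pool of the same livers gives no level, so the tissue label could not be checked against its markers.

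**Figure D5:**
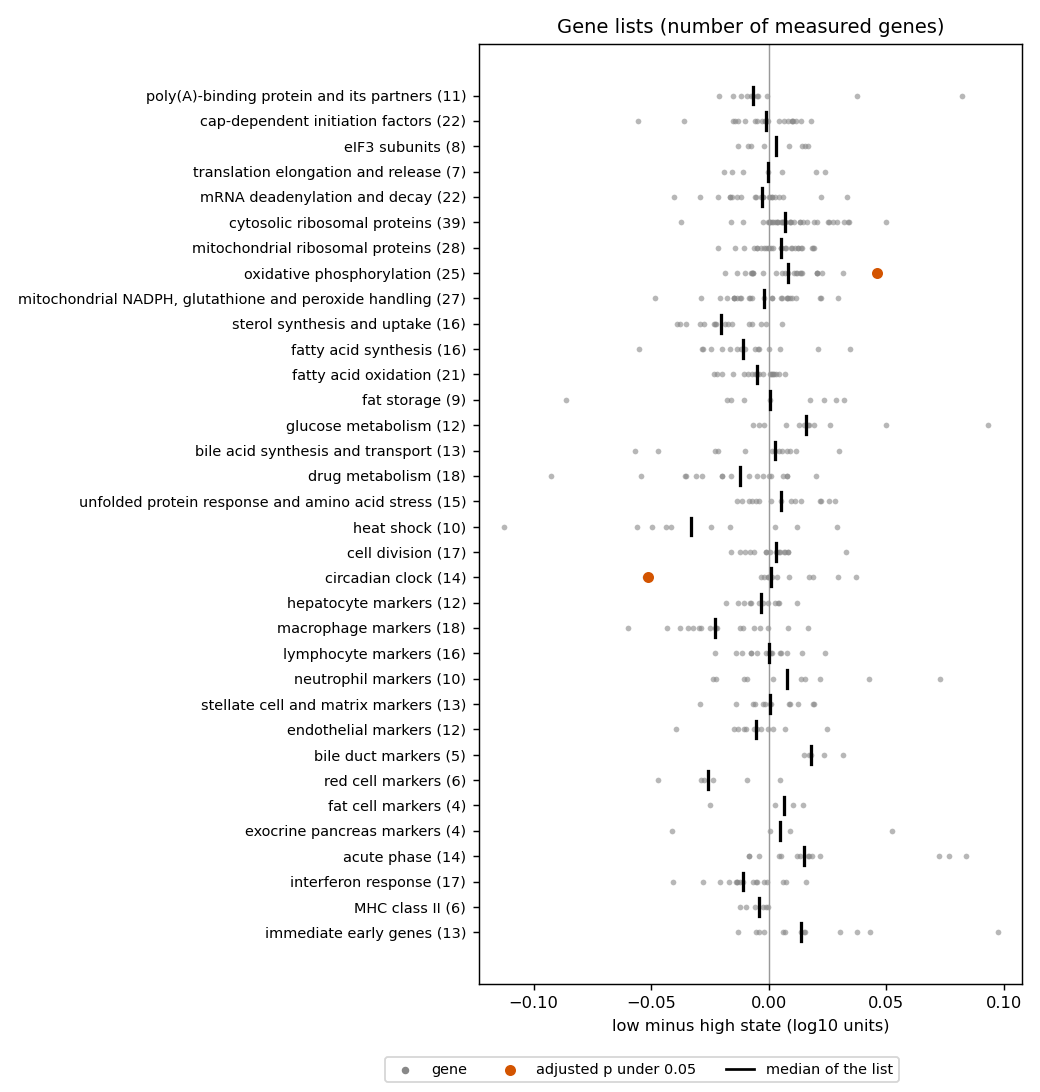
Difference of low-state minus high-state livers in log10 units for each measured gene of 34 lists, with black lines at the list medians and orange points where the adjusted p was under 0.05. The 2 orange points are Cox7c (0.0464) and Cry1 (-0.0513), and list medians lie between -0.0332 and 0.0183.

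The effect of the state on the other genes was not shown to depend on the blocks. The interaction of state with Eif2s3y block was called by limma in 0 of 23510 probes (0%), with 1502 at an unadjusted p under 0.05 (6.39%). For the range of title numbers Nnt was the single call, with 904 probes at an unadjusted p under 0.05 (3.85%).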

How the data were processed

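The authors deposited 1 table of log10 ratios, read here as liver (Cy3) over pool (Cy5), for 23562 probes and 302 livers. Per the labels' protocols RNA was extracted on spin columns and labelled by an automated aminoallyl amplification. How spots were read, corrected and normalized is not given in the sources used here. Base and direction are inferred, values end at -2 and 2, and 0.0831% were missing. The deposited values were used as they stand. Array medians ran from -0.0117 to 0.0174. Signal over background was not used here.

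Probe names came from the platform's annotation, updated by gene identifier to GRCm38.p6: 13655 probes had 1 symbol, 48 several, 9859 none listed, and 12652 matched 10838 genes. Gene order comes from that assembly. The array's build is not known. A gene is represented by its probe with the largest SD.

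Probes with values in at least 90% of livers were fitted with limma 3.58.1 in R 4.3.3 (lmFit, eBayes). Covariates were Eif2s3y block and title number range, and adjustment was by Benjamini-Hochberg over all probes, both Paip1 probes left out. Python 3.11.15 and scipy 1.17.1 served for the rest. The fit was tested on simulated data.

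The members, lists and blocks were chosen with earlier results of these data known. Named were called genes among the 15 nearest on each side of Paip1, the 15 largest elsewhere on chromosome 13 and on other chromosomes, up to 4 per list, Nnt and Pabpc1. Hmgcs1, also in that rule, was not analysed here. Alternatives changed the blocks, scaling, arrays, probes, weights, the subset of livers or the Paip1 probe.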

Additional observations from a re-analysis of the deposited data

Results flagged for a closer look

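The effect of the Paip1 state on Nnt differed between the ranges of title numbers by 0.140 log10 units (higher minus lower range), by the limma interaction term (adjusted p = 0.0125). In the higher range Nnt was lower in low-state livers by a difference of -0.132, and in the lower range by one of -0.271. The low-state livers above number 212 fell into 13 with low and 24 with high values, and the 33 up to number 212 were all low. Those 13 all had numbers of 276 or above. Nnt was the probe called in each of the 5 alternatives run for it, at 0.142 to 0.175 log10 units, with adjusted p between 2.07e-05 and 0.00955 by limma. Its cause was not tested.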

How the results depend on the processing

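In the 10 alternatives fitted over both states and all blocks Nnt kept its call and lay between -0.212 and -0.194, and the direction of all 20 called genes was kept, with 13 called throughout. These fits share most or all livers with the fit that chose the genes, which favours the same direction. The count of probes off chromosome 13 by name was 33, and 20 without a block and 20 with arrays scaled to equal spread. Fits on fewer livers called fewer probes: 10 up to number 212 (4 on chromosome 13 by name, 6 not), 20 above it (4 and 16), 11 in the lower Eif2s3y block (3 and 8) and 23 in the upper one (7 and 16), against 45 in all. With states taken from the other Paip1 probe (185 low-state livers) 7290 of 23510 probes were called. They were 151 of the 480 on chromosome 13 by name and 7139 of the 23030 others. Direction and call were kept in 7 genes, among them Tmem267 (0.138, adjusted p = 3.64e-05 by limma). Nnt was lost (-0.00857, adjusted p = 0.729), as were Ssbp2, Ercc8 and Zdhhc22. The other 9 genes turned: Cox7c (-0.0270), Ndufaf2 (-0.0188), Zfp574 (0.0189), Cry1 (0.00334), Zfp1 (-0.0108), Nsg1 (0.00702), Impg2 (-0.0139), Trim28 (0.0161) and Fzr1 (0.00681). Of these 9 only Cox7c, Ndufaf2 and Trim28 were called in the turned direction (adjusted p = 0.0146, 0.00973 and 0.00403 by limma). By the other Paip1 probe low-state livers made up 66.2% of the lower Eif2s3y block and 56.9% of the upper one (p = 0.0996, Fisher's exact test). No association of state with that block was shown by either probe. Why the 2 probes gave different results was not tested. Pabpc1, never called, changed sign without a block (0.00314), with quantile normalization (0.00206), equal spread (0.00205), array weights (0.00353), numbers up to 212 (0.00290), the upper Eif2s3y block (0.00296) and the other probe (0.00263). No paired analysis was possible because the labels give 1 group and each mouse its own number.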
